A study of Mus musculus with 10 samples.

Results

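A set of 10 genes of the Nodal branch of TGF-beta signalling was followed through ribosome footprints of mouse embryonic stem cells with and without the proteins that make and use miRNAs. The set, like the lists of other genes below, was chosen by gene symbol with earlier results of these data known. Its calls beside the share of all genes are therefore a description and no test of the set. It holds the ligands Nodal and Gdf3, the co-receptor Tdgf1, and the receptors Acvr2b and Tgfbr2. The signal carrier Smad2 and the inhibitors Lefty1, Lefty2, Smad7 and Skil complete it. All 10 were among the 11011 genes of the table, and all 10 passed the filter on low counts, as did 10978 genes in all. The cells were of the line E14, derived from blastocysts of the mouse strain 129/Ola, and were cultured on gelatine with serum and the self-renewal cytokine LIF. The libraries fell into 5 groups of 2. One group was labelled WT, and the other 4 were labelled as knockouts of Dgcr8, of Drosha, of Dicer, and of Ago1 with Ago2 (called the Ago knockout). The labels used here do not say how many clones a group came from, nor whether its libraries came from separate cultures, so a p-value here weighs a difference against the spread between libraries alone, which may be technical. Ribosome profiling sequences the stretches of mRNA that ribosomes shield from nuclease. No matched mRNA libraries were analysed here, so a difference in footprints includes any difference in mRNA amount, and in such bulk samples fewer cells of a type and less RNA per cell cannot be told apart.

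Nodal is a secreted protein of the TGF-beta family that binds activin receptors together with the co-receptor Tdgf1, also called Cripto. The receptors phosphorylate Smad2, which enters the nucleus with Smad4 and switches on target genes, among them Nodal itself and its secreted antagonists Lefty1 and Lefty2, so the pathway carries its own brake. In mouse embryonic stem cells the miR-290 family of miRNAs is abundant. Lefty mRNAs of vertebrates are known targets of miRNAs with the seed that this family shares with the miR-302 family. The nuclear partners Drosha and Dgcr8 release hairpins from miRNA transcripts, Dicer trims these hairpins once they are exported, and Ago proteins carry the finished miRNA to its targets.

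The mature miRNAs below, from the RefSeq table on GRCm38.p6, are shown because their seed (bases 2 to 8, in capitals) is the one that pairs with the Lefty sites. The first lies at chr7:3220691-3220712 and the other at chr3:127545275-127545297, both on the plus strand.
mmu-miR-294-3p: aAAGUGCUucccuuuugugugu
mmu-miR-302b-3p: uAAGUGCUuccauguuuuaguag
The same seed stands in miR-291a-3p, miR-295-3p and miR-302d-3p of that table. The seed AAGUGCU pairs with the letters AGCACTT in a transcript. These letters were searched for on the transcript strand of each member's 3' UTR in GENCODE M21 (GRCm38), and a match followed by A is called an 8-letter match.

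An 8-letter match stood in the 3' UTR of both inhibitors Lefty1 and Lefty2, and a 7-letter match in that of the receptor Tgfbr2. Each is printed below in a window of 30 bases, with the match in capitals. The Lefty1 window is chr1:180938202-180938231 on the plus strand, the Lefty2 window chr1:180897906-180897935 on the plus strand, and the Tgfbr2 window chr9:116089869-116089898 on the minus strand.
Lefty1: actgtatgcgaAGCACTTAcatgtatagat
Lefty2: cacccagtttaAGCACTTAcatgggtaaat
Tgfbr2: gggatagcgttAGCACTTgacaatcagtca
The Lefty1 match starts at base 238 of a 3' UTR of 425 bases, and the Lefty2 match at base 104 of 1290 bases. Of the 3' UTRs within 20% of the length of Lefty1's, 1.23% of 977 held an 8-letter match. The share was 2.62% of 1564 for those of the length of Lefty2's, and 3.39% of all 10951 genes with a 3' UTR. A wider count, of 7 or 8 letters, also took matches that lack the first letter but are followed by A, which no member held. By this wider count 20.9% of the 1587 3' UTRs of the length of Tgfbr2's held a match. Smad2 held 3 matches of 7 letters in a 3' UTR of 6233 bases, a length at which 67.2% of 320 genes held at least 1 by the wider count. The 3' UTRs of Nodal, Tdgf1, Gdf3, Smad7, Skil and Acvr2b did not hold these letters. Matches are described as letters and were not tested as sites.

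The miR-17 family, also abundant in these cells, has a seed that is shifted by 1 base, and Tgfbr2 is a known target of it. Its namesake, at chr14:115043684-115043706 on the plus strand, and 2 member genes with a match to its seed are shown for that reason. The seed and the matches to GCACTTT are in capitals, with the Tgfbr2 window at chr9:116090062-116090091 on the minus strand and the Skil window at chr3:31119649-31119678 on the plus strand.
mmu-miR-17-5p: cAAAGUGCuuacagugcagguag
Tgfbr2: caataacgtttGCACTTTAttaatgcctgt
Skil: gggcagcctttGCACTTTtctttgtttttg
Tgfbr2 held an 8-letter match, as did 4.41% of 1587 3' UTRs of its length and 4.22% of all. Skil held a 7-letter match, where 46.6% of 841 3' UTRs of its length held at least 1 of 7 or 8 letters by the wider count. Smad7 held 1 match of 7 letters, where 24.3% of 1587 held at least 1 by the wider count. Smad2 held 2, both overlapping matches to AGCACTT, where 63.7% of 320 held at least 1 by the same count. The Lefty genes held no match to these letters.

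Total counts ran from 1754710 to 80850950 per library, a span of 46.1 times, so that 3 counts correspond to between 0.0371 and 1.71 counts-per-million (CPM). In WT and the Ago knockout both libraries were deep, and in the Drosha knockout both were shallow. The Dicer knockout paired a library of 5432599 counts with the shallowest of all, at 1754710. In the group labelled Dgcr8 the deepest library was paired with 1 of 4955916 counts. Footprints on the deleted gene were lower than in WT for Drosha (177 CPM in WT, 29.4 in its knockout), Dicer1 (123 and 18.9) and Ago2 (81.9 and 10.8). Ago1 did not differ in this way, at 14.5 CPM in WT and 18.9 in the Ago knockout, so the counts do not check the Ago1 part of that label. Ago1 was called higher than in WT for Drosha (66.8 CPM) and Dicer (72.5 CPM). Dgcr8 went against its label, at 32.9 CPM in WT and 145 CPM in the 2 libraries labelled Dgcr8 knockout, so the counts do not check that label, and directions drawn from those 2 libraries rest on the label alone. Dgcr8 was called higher than in WT in the other knockouts too, at 183 CPM for Drosha, 70.3 for Dicer and 69.02 for Ago. The 8 embryonic stem cell markers summed to between 4210 and 5470 CPM in every library, and 1 of them, Klf4, was called lower in the Drosha, Dicer and Ago knockouts. The sum holds values of both signs. In Dicer 2 of the 8 were higher and 6 lower, with Dppa5a at 1095 CPM in WT and 2074 in Dicer. Zfp42 stood at 1134 and 647 CPM, and a second test, DESeq2, called 2 of the 8 there. Of 6 primitive streak markers, which Nodal signalling is known to induce, 0 were in the table, and these are not analysed here.

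The inhibitor Lefty1 and the ligands Gdf3 and Nodal made up all the calls by edgeR among the 10 genes, and each was higher in the knockout where it was called. Of 40 tests against WT, 6 passed an adjusted p of 0.05 in edgeR's quasi-likelihood test with Benjamini-Hochberg adjustment over all genes, and 15 had an unadjusted p under 0.05. In the Drosha knockout 1 of 10 members was called, Gdf3, where 3.44% of all genes tested were called. In the Dicer knockout 2 of 10 were called, Lefty1 and Gdf3, against 11.1% of all genes. In the Ago knockout 3 of 10 were called, Lefty1, Nodal and Gdf3, against 2.88% of all genes. In the libraries labelled Dgcr8 knockout 0 of 10 were called by edgeR, with 2 at an unadjusted p under 0.05 and 1, Gdf3, called by DESeq2, where 0.0729% of all genes were called by edgeR.

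The members held values of both signs. Their median log2 fold change was 0.06 for Dgcr8, 0.28 for Drosha, 0.30 for Dicer and 0.00 for Ago, where the medians of all genes were 0.02, -0.01, 0.00 and 0.04. In a test for any difference among the 5 groups, which called 6.47% of all genes, Gdf3 (adjusted p = 0.017) and Lefty1 (adjusted p = 0.048) passed. The call of Lefty1 in that test was lost without any 1 of 5 libraries, with an adjusted p of 0.059 without Ago replicate 1, 0.053 without Dgcr8 replicate 1, 0.066 without Dicer replicate 1, 0.11 without WT replicate 1 and 0.20 without WT replicate 2. The call of Gdf3 was lost without 3 libraries, with 0.068 without Dicer replicate 1, 0.055 without WT replicate 1 and 0.17 without WT replicate 2. Lefty2 had an adjusted p of 0.11 in all 10 libraries in that test and of 0.023 with both Dgcr8 libraries left out, 0.033 without Dgcr8 replicate 1 and 0.0099 without Dgcr8 replicate 2. Nodal had an adjusted p of 0.077 by edgeR and of 0.0026 by DESeq2.

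**Figure D1:**
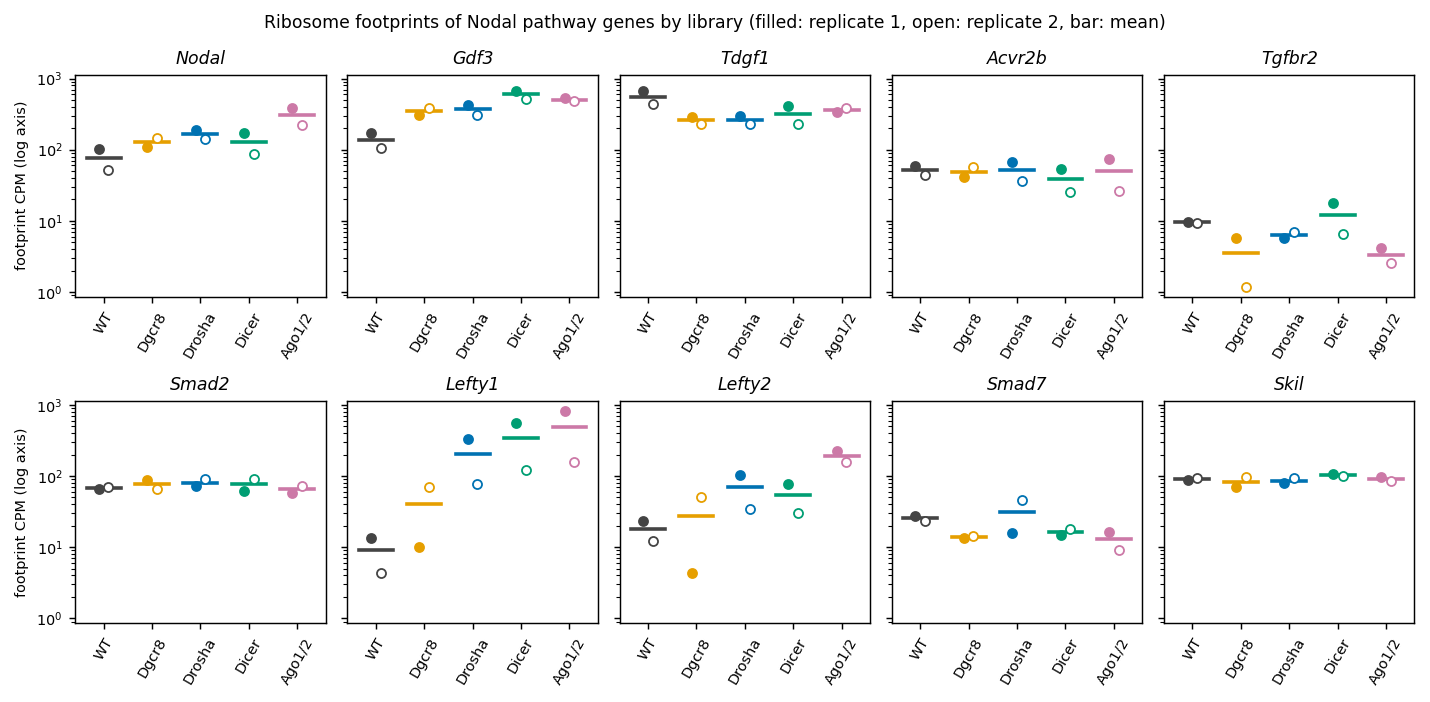
Footprint levels of the 10 genes in each of the 10 libraries, in CPM on a log axis, with 1 panel per gene, points for the libraries and the 5 groups side by side. Lefty1 spans from 4.40 CPM in WT to 821 CPM in the Ago knockout, while Smad2 and Skil stay between 57.3 and 107 CPM in all 10 libraries.

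Gdf3, a secreted ligand related to Nodal that also works through Tdgf1 and is a long-used marker of undifferentiated cells, was the member called in the most comparisons (chr6:122605403-122610087 on GRCm38, minus strand). It stood at 172 and 104 CPM in the 2 WT libraries (138 ± 48.3, SD, n = 2), 311 and 385 for Dgcr8, 430 and 312 for Drosha, 679 and 519 for Dicer, and 525 and 482 for Ago. Every knockout library lay above both WT libraries, in all 4 groups. The share of all genes with both knockout libraries above both WT libraries was 22% for Dgcr8, 25.9% for Drosha, 32.7% for Dicer and 27.2% for Ago. Gdf3 rose 2.68-fold in the Drosha knockout (log2 1.42, SE 0.32, edgeR adjusted p = 0.036). It rose 4.34-fold in the Dicer knockout (log2 2.12, SE 0.33, adjusted p = 0.0032) and 3.65-fold in the Ago knockout (log2 1.87, SE 0.32, adjusted p = 0.016). In the libraries labelled Dgcr8 knockout the difference was 2.52-fold (log2 1.33, SE 0.32) with an adjusted p of 0.26, which DESeq2 put at 0.0089. The 4 comparisons share the 2 WT libraries.

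The Gdf3 calls depended on single WT libraries. Without WT replicate 1 the Ago call was lost (log2 2.29, adjusted p = 0.058) and the Dicer call was kept (log2 2.51, adjusted p = 0.019), and without WT replicate 2 the Dicer call (log2 1.80, adjusted p = 0.062) and the Ago call (log2 1.55, adjusted p = 0.25) were lost. The Drosha call was lost without any 1 of 6 libraries. The log2 value and adjusted p were then 1.17 and 0.12 without Drosha replicate 1, 1.65 and 0.053 without Drosha replicate 2, 1.83 and 0.099 without WT replicate 1, and 1.10 and 0.36 without WT replicate 2. They were 1.42 and 0.052 without Dicer replicate 1, and 1.41 and 0.053 without Dicer replicate 2.

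Nodal, the ligand that gives the pathway its name (chr10:61417972-61425338, plus strand), had 104 and 51.2 CPM in WT (77.6 ± 37.3, SD, n = 2) and 383 and 225 CPM in the Ago knockout (304 ± 112). Both Ago libraries lay above both WT libraries. Nodal rose 3.93-fold there (log2 1.97, SE 0.44, edgeR adjusted p = 0.038). The call was lost without Ago replicate 1 (log2 1.54, adjusted p = 0.13), without WT replicate 1 (log2 2.57, adjusted p = 0.066) and without WT replicate 2 (log2 1.55, adjusted p = 0.40). In the Drosha knockout Nodal had 192 and 141 CPM, above both WT libraries, with a log2 difference of 1.10 (SE 0.43, 95% interval 0.16 to 2.04) and an adjusted p of 0.19. In the Dicer knockout it had 171 and 86.1 CPM, which overlap WT, with a log2 difference of 0.74 (SE 0.43, adjusted p = 0.29). In the libraries labelled Dgcr8 it had 108 and 145 CPM, just above WT, with a log2 difference of 0.71 (SE 0.43, adjusted p = 0.63).

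The co-receptor Tdgf1, which ties Nodal and Gdf3 to the activin receptors, had the opposite sign (chr9:110939603-110946158, minus strand). It stood at 672 and 436 CPM in WT (554 ± 167, SD, n = 2), 291 and 228 for Dgcr8, 298 and 229 for Drosha, 406 and 231 for Dicer, and 337 and 383 for Ago. All 8 knockout libraries lay below both WT libraries, the nearest being Dicer replicate 1 at 406 CPM beside WT replicate 2 at 436 CPM. Both knockout libraries lay below both of WT for 22.9% of all genes for Dgcr8, 27.9% for Drosha, 34.6% for Dicer and 26.1% for Ago. No Tdgf1 difference passed edgeR's test over all genes without a replicate block. The log2 differences were -1.09 in Dgcr8 (SE 0.34, adjusted p = 0.33), -1.07 in Drosha (SE 0.34, adjusted p = 0.11), -0.79 in Dicer (SE 0.34, adjusted p = 0.15) and -0.62 in Ago (SE 0.34, adjusted p = 0.33). DESeq2 called the Drosha difference at -1.07 with an adjusted p of 0.034. Of the 489 stretches of 28 coding bases in Tdgf1, 345 (70.6%) also occur in Tdgf1-ps1, Tdgf1-ps2 or Gm13455, so the level of Tdgf1 depends on how reads with several matches were counted, which is not given in the sources used here.

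Acvr2b, a type II activin receptor that binds Nodal, showed wide spread within groups and overlapped WT in each (chr9:119402118-119434995, plus strand). It had 59.6 and 43.6 CPM in WT, and between 25.4 and 74.6 CPM in the 8 knockout libraries. Its log2 differences ran from -0.37 in Dicer to -0.02 in Drosha, with SEs of 0.49 to 0.51 and adjusted p of 0.68 to 0.99.

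Tgfbr2, the type II receptor for TGF-beta ligands, had the lowest mean level per kilobase of coding sequence of the 10 genes in all 5 groups (chr9:116084293-116175360, minus strand). It stood at 9.59 and 9.46 CPM in WT, 5.77 and 1.20 for Dgcr8, 5.80 and 6.99 for Drosha, 17.8 and 6.62 for Dicer, and 4.10 and 2.55 for Ago. The Dgcr8, Drosha and Ago libraries lay below both WT libraries, and the Dicer libraries lay on either side. The log2 difference was -1.53 in Ago (SE 0.67, 95% interval -2.98 to -0.07, adjusted p = 0.23) and -1.33 in Dgcr8 (SE 0.66, adjusted p = 0.54), where replicate 2 rests on 6 counts. It was -0.57 in Drosha (SE 0.71, adjusted p = 0.71) on 11 and 16 counts, and 0.41 in Dicer (SE 0.66, adjusted p = 0.74) on 90 and 12 counts. None of these passed, and the Dicer value became -0.52 without Dicer replicate 1.

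Smad2, which carries the signal from the receptors to the nucleus, held a narrow range (chr18:76241580-76310963, plus strand). It had 65.9 and 69.2 CPM in WT (67.5 ± 2.29, SD, n = 2) and between 57.3 and 91.0 CPM in the knockout libraries. The log2 differences were 0.19 for Dgcr8, 0.26 for Drosha, 0.16 for Dicer and -0.06 for Ago, each with an SE of 0.30. The 4 intervals of 95% lay within -0.70 and 0.92, so larger differences in Smad2 footprints lie outside them. The adjusted p ran from 0.69 to 0.94.

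Lefty1, a secreted antagonist that keeps Nodal from its receptors, had the largest differences of the set. In WT it had 13.6 and 4.40 CPM (9.02 ± 6.54, SD, n = 2). The knockouts gave 10.03 and 69.5 CPM for Dgcr8, 329 and 77.8 for Drosha, 562 and 121 for Dicer, and 821 and 160 for Ago. All 6 libraries of the Drosha, Dicer and Ago knockouts lay above both WT libraries, while the libraries labelled Dgcr8 lay on either side of WT replicate 1. Lefty1 rose 38.8-fold in the Dicer knockout (log2 5.28, SE 1.22, edgeR adjusted p = 0.019). It rose 55.4-fold in the Ago knockout (log2 5.79, SE 1.25, adjusted p = 0.033). In the Drosha knockout the difference was 23.0-fold (log2 4.52, SE 1.18, 95% interval 1.94 to 7.10) with an adjusted p of 0.061, which just missed the threshold. DESeq2 called it at an adjusted p of 0.012, as did edgeR on the Drosha and WT libraries alone (0.018), on total counts as library sizes (0.047) and with both Dgcr8 libraries left out (0.04). Leaving out Dgcr8 replicate 1 (0.039), Dgcr8 replicate 2 (0.038) or Ago replicate 1 (0.048) also brought it under 0.05, and leaving out Ago replicate 2 brought it to 0.05 after rounding. In the libraries labelled Dgcr8 it was 2.13 on the log2 scale (SE 1.09, 95% interval -0.24 to 4.50, adjusted p = 0.56).

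Replicates of Lefty1 lay far apart, and the calls depended on single libraries. Within the groups the higher library exceeded the lower by 3.10 times in WT, 6.93 for Dgcr8, 4.23 for Drosha, 4.65 for Dicer and 5.14 for Ago. Replicate 1 was the higher in 4 groups and replicate 2 in Dgcr8. The Dicer call was lost without Dicer replicate 1 (log2 3.78, adjusted p = 0.12), without WT replicate 1 (log2 6.26, adjusted p = 0.068) and without WT replicate 2 (log2 4.65, adjusted p = 0.18). The Ago call was lost without Ago replicate 1 (log2 4.18, adjusted p = 0.10), without WT replicate 1 (log2 6.79, adjusted p = 0.12) and without WT replicate 2 (log2 5.17, adjusted p = 0.33). In every such setting the sign stayed, and the lowest log2 value in these 3 knockouts was 3.14, for Drosha.

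**Figure D2:**
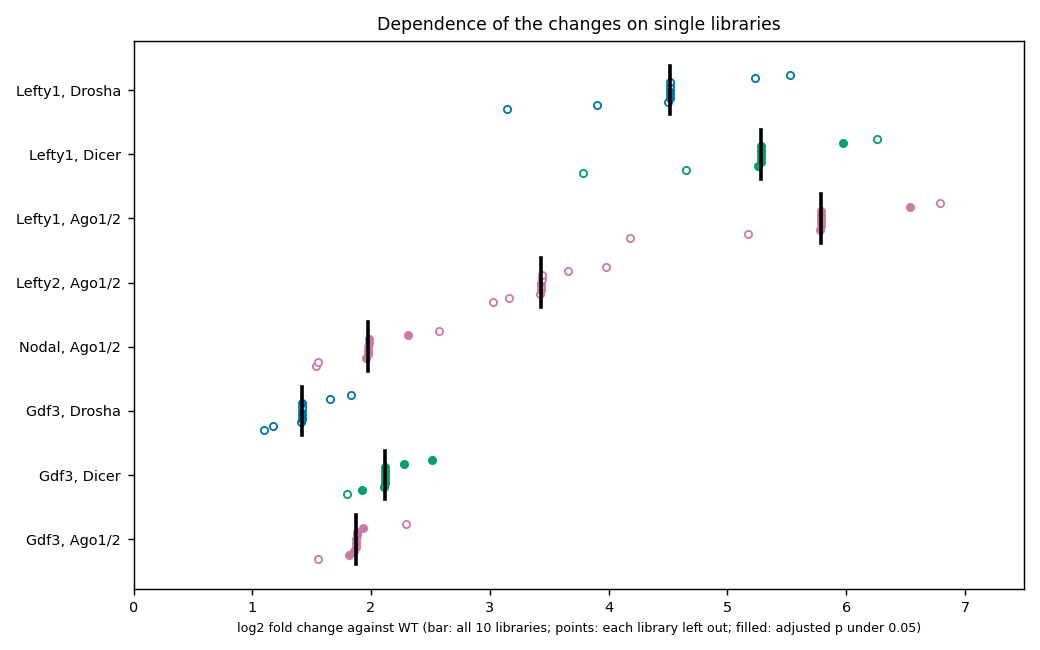
Log2 fold change against WT with each of the 10 libraries left out in turn, shown as points beside a bar for the value from all libraries, for 8 combinations of Lefty1, Lefty2, Nodal or Gdf3 with a knockout (filled for an adjusted p under 0.05). Lefty1 in the Ago knockout runs from 4.18 to 6.79 and keeps its sign, while the adjusted p crosses 0.05 when Ago replicate 1 or either WT library is left out.

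Lefty2, the second Lefty antagonist, lies beside Lefty1 on chromosome 1 and carries the same 8 letters in its 3' UTR. It stood at 23.3 and 12.1 CPM in WT (17.7 ± 7.93, SD, n = 2), 4.28 and 50.2 for Dgcr8, 104 and 34.1 for Drosha, 77.7 and 29.8 for Dicer, and 223 and 157 for Ago. The Drosha, Dicer and Ago libraries all lay above both WT libraries, and the Dgcr8 libraries lay on either side of them. In the Ago knockout the difference was 10.8-fold (log2 3.43, SE 0.93, 95% interval 1.40 to 5.46), with an edgeR adjusted p of 0.074. It passed in DESeq2 (adjusted p = 0.038), with both Dgcr8 libraries left out (0.014) or either 1 of them (0.013), and on the Ago and WT libraries alone (0.0018). The log2 difference was 1.96 in Drosha (SE 0.89, adjusted p = 0.26) and 1.64 in Dicer (SE 0.88, adjusted p = 0.26), the latter called at 0.010 on the Dicer and WT libraries alone. In the libraries labelled Dgcr8 it was 0.57 (SE 0.87, adjusted p = 0.89), and -2.04 without Dgcr8 replicate 2.

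Smad7, an intracellular inhibitor that blocks the receptors and is itself a target gene of Smads (chr18:75367529-75395935, plus strand), had 27.4 and 23.6 CPM in WT (25.5 ± 2.67, SD, n = 2). It stood at 13.6 and 14.5 CPM for Dgcr8, 14.8 and 18.2 for Dicer, and 16.5 and 9.22 for Ago, all below both WT libraries. The Drosha libraries, at 15.8 and 46.3 CPM on 30 and 106 counts, lay on either side. The log2 differences were -0.86 in Dgcr8 (SE 0.46, adjusted p = 0.58), 0.30 in Drosha (SE 0.46, adjusted p = 0.78), -0.64 in Dicer (SE 0.47, adjusted p = 0.42) and -0.99 in Ago (SE 0.46, adjusted p = 0.26). None passed the test. Smad7 values in the Dicer and Ago knockouts thus had the opposite sign to those of the Lefty genes.

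Skil, also called SnoN, a nuclear repressor of Smad target genes, had the smallest differences of the 4 inhibitors (chr3:31095058-31122577, plus strand). It had 87.3 and 92.5 CPM in WT (89.9 ± 3.65, SD, n = 2) and between 69.9 and 107 CPM in the knockout libraries. The log2 differences lay between -0.12 and 0.19, with SEs of 0.26 to 0.27 and adjusted p of 0.69 to 0.97. The 4 intervals of 95% lay within -0.70 and 0.78.

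**Figure D3:**
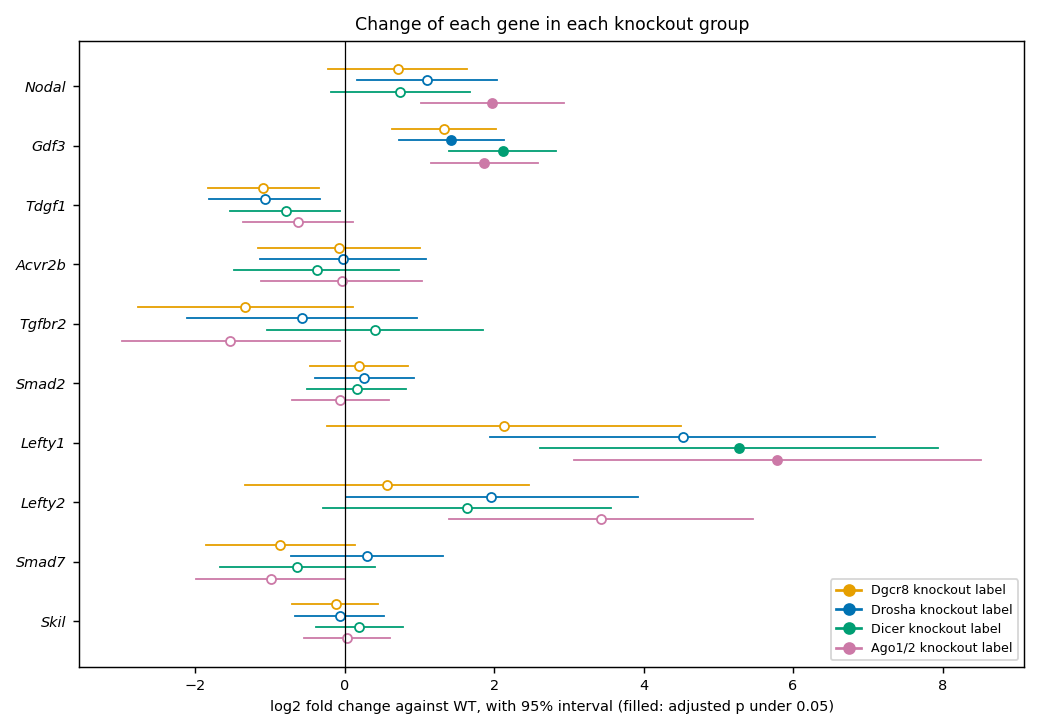
Log2 fold change of each member against WT with its 95% interval in the 4 knockout groups, where filled points passed an adjusted p of 0.05. The intervals of Lefty1 are the widest and those of Smad2 and Skil, near 0, are among the narrowest.

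Differences between the knockouts did not pass for any member. Of 60 tests over 6 pairs of knockouts, 0 passed in edgeR and 0 in DESeq2, and 11 had an unadjusted p under 0.05. The share of all genes called by edgeR was 0.501% for Dgcr8 against Drosha, 4.07% for Dgcr8 against Dicer, 0.483% for Dgcr8 against Ago, 0.00911% for Drosha against Dicer, 0.0455% for Drosha against Ago and 0.547% for Dicer against Ago. Lefty1 was lower in the libraries labelled Dgcr8 than in Ago by a log2 value of -3.66 (SE 1.12, adjusted p = 0.19), than in Dicer by -3.15 (SE 1.10, adjusted p = 0.15) and than in Drosha by -2.39 (SE 1.08, adjusted p = 0.42). Between Drosha, Dicer and Ago the Lefty1 differences had wide intervals, -2.98 to 1.47 for Drosha minus Dicer, -3.51 to 0.97 for Drosha minus Ago and -2.72 to 1.69 for Dicer minus Ago. Nodal was lower in Dicer than in Ago by a log2 value of -1.23 (adjusted p = 0.25) and in the libraries labelled Dgcr8 than in Ago by -1.27 (adjusted p = 0.23), so the rise of Nodal called in Ago was not shown to differ from the values there. Gdf3 differed by -0.79 in Dgcr8 minus Dicer (adjusted p = 0.20), the largest of its 6 differences between knockouts, and by -0.09 in Dgcr8 minus Drosha (adjusted p = 0.94). Without Dgcr8 replicate 2, 2 of the 60 tests passed, both for Lefty2, at -3.68 for Dgcr8 minus Dicer (adjusted p = 0.043) and -5.47 for Dgcr8 minus Ago (adjusted p = 0.025).

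The Lefty genes are near copies of each other, which bears on how reads were split between them. In GENCODE M21 (GRCm38) Lefty2 lies at chr1:180893108-180899103 and Lefty1 at chr1:180935022-180938400, both on the plus strand with 35918 bases between them. Both encode 368 codons, with 91.9% of coding bases and 89.9% of residues identical. Of the 1080 stretches of 28 coding bases in Lefty1, 426 (39.4%) also occur in Lefty2, so counts of the pair are uncertain where the authors' counting could split such reads. The counts of Lefty1 over those of Lefty2 were 0.585 and 0.363 in WT, 2.35 and 1.38 for Dgcr8, 3.17 and 2.28 for Drosha, 7.23 and 4.06 for Dicer, and 3.68 and 1.02 for Ago. Lefty2 thus had more footprints than Lefty1 in both WT libraries, and Lefty1 had more in all 8 knockout libraries.

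With the counts of both Lefty genes added into 1, a choice made after seeing the reference, the sum was 37.0 and 16.5 CPM in WT, 14.3 and 120 for Dgcr8, 433 and 112 for Drosha, 640 and 151 for Dicer, and 1040 and 317 for Ago. The Drosha, Dicer and Ago libraries all lay above both WT libraries. The sum rose in Dicer (log2 3.90, SE 1.06, edgeR adjusted p = 0.037) and in Ago (log2 4.68, SE 1.10, adjusted p = 0.046). It differed by 3.35 in Drosha (SE 1.04, adjusted p = 0.10) and by 1.31 in the libraries labelled Dgcr8 (SE 0.97, adjusted p = 0.72). Apart from Lefty1, Lefty2 and Tdgf1, the other 7 members share no stretch of 28 coding bases with another gene, and no member's exons overlap those of another annotated gene.

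Among the 371 genes with the 8-letter match that Lefty1 and Lefty2 carry, 60 (16.2%) were called higher in Dicer, where 7.35% of all genes were. The shares were 4.85% in Drosha, where 2.48% of all genes were called higher, 4.31% in Ago against 1.98%, and 0.0% in the libraries labelled Dgcr8 against 0.0547%. The median log2 fold change of the 371 genes was 0.33 in Dicer, 0.21 in Drosha and 0.26 in Ago, and that of all genes 0.00, -0.01 and 0.04. The 462 genes with an 8-letter match to the miR-17 family, which the Lefty genes lack, had shares of 13.9% in Dicer, 6.71% in Drosha, 4.33% in Ago and 0.216% in the libraries labelled Dgcr8. Their medians were 0.37 in Dicer, 0.22 in Drosha and 0.19 in Ago. Lefty1 and Lefty2 are themselves among the 371 genes. Neither group of genes was matched to all genes in 3' UTR length. The share with the 8-letter match of the Lefty genes was 1.23% at the length of Lefty1's 3' UTR and 13.4% at that of Smad2's. The part of either match in the values of the members was not tested.

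Markers of primitive endoderm, a cell type that embryonic stem cell cultures can hold, had their largest sums in the 3 libraries with the lowest Lefty values. Of 8 markers 7 were tested, and their sum was 5030 and 5710 CPM in WT, 2680 and 268 for Dgcr8, 398 and 444 for Drosha, 275 and 210 for Dicer, and 554 and 427 for Ago. A single marker, Lama1, made up most of that sum in every library. Lama1 stood at 3684 and 4312 CPM in WT, 1920 and 246 for Dgcr8, and 389 and 411 for Drosha. For Dicer it had 259 and 195 CPM, and for Ago 535 and 416. All 7 markers had negative log2 values in each knockout. Lower calls numbered 4 of 7 in Drosha, 6 in Dicer, 6 in Ago and 0 in Dgcr8 (3 at an unadjusted p under 0.05, 1 by DESeq2), and Gata6 was at 0 counts in both Dicer libraries. Of all genes 0.966% were called lower in Drosha, 3.76% in Dicer, 0.902% in Ago and 0.0182% in Dgcr8. With single libraries of the compared groups left out these calls fell to 0 in Drosha without any 1 of its or the WT libraries. They fell to 0 in Dicer without Dicer replicate 1, and to 2 without Dicer replicate 2 or WT replicate 2. In Ago they fell to 2 without Ago replicate 1 or WT replicate 1, 1 without Ago replicate 2 and 0 without WT replicate 2, and in Dgcr8 they rose to 4 without Dgcr8 replicate 1. Both WT libraries and Dgcr8 replicate 1 held the 3 largest endoderm sums, and the same 3 libraries held the 3 lowest values of Lefty1 (4.40 to 13.6 CPM) and of Lefty2 (4.28 to 23.3 CPM). In the other 7 libraries the endoderm sum was 210 to 554 CPM, Lefty1 69.5 to 821 CPM and Lefty2 29.8 to 223 CPM. Within these 7 the values went both ways. The largest sum, 554 CPM in Ago replicate 1, came with the highest Lefty1 and Lefty2. The smallest, 210 CPM in Dicer replicate 2, came with the lowest Lefty2, and with Lefty1 at 121 CPM. By contrast, Dicer replicate 1 had a sum of 275 CPM with Lefty1 at 562 CPM. Drosha replicate 2 had a sum of 444 CPM with Lefty1 at 77.8 CPM. The 7 libraries come from different knockouts, so group and sum cannot be told apart among them. The part of the endoderm cells in the differences of the Lefty genes, Gdf3 and Nodal was not tested.

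**Figure D4:**
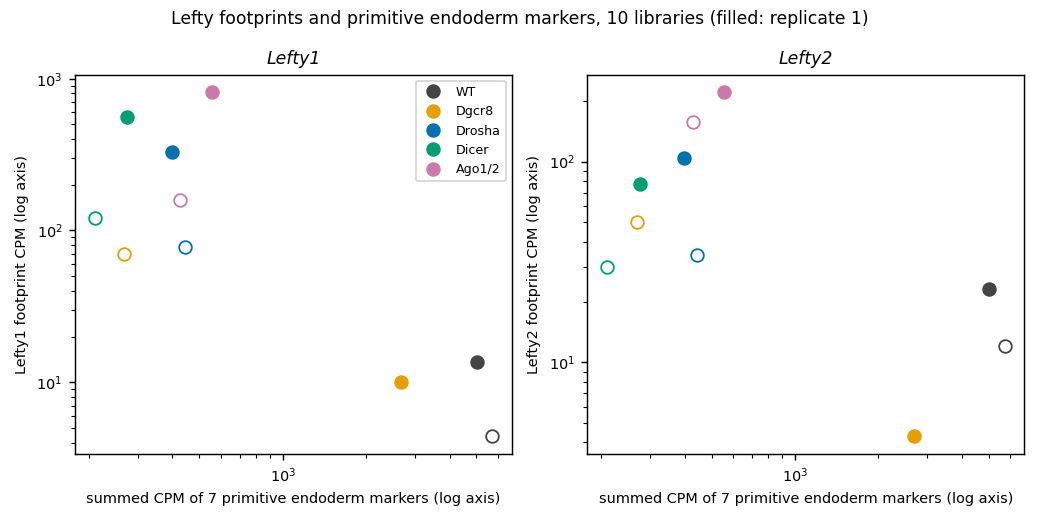
Level of Lefty1 and of Lefty2 against the summed level of 7 primitive endoderm markers in each of the 10 libraries, in CPM on log axes with a colour per group. Both WT libraries and Dgcr8 replicate 1 sit at 2680 to 5710 CPM of endoderm markers with the 3 lowest Lefty values, and the other 7 libraries sit at 210 to 554 CPM. Lama1 makes up most of the sum in every library.

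Some genes of the trophectoderm and fibroblast marker lists also differed between groups. Absent from the counts were Cdx2, Elf5, Gata3 and Hand1 of the trophectoderm list, and Col1a1 and Col3a1 of the fibroblast list. Trophectoderm markers, of which 4 of 8 were tested, summed to 125 and 136 CPM in WT, 311 and 343 for Drosha, and 672 and 476 for Dicer, with 2 called higher in Drosha, where 2.48% of all genes were, and 3 in Dicer, where 7.35% were. Their sum was 135 and 206 CPM for Dgcr8 and 157 and 178 for Ago, with 0 called by edgeR or DESeq2 (0 and 1 at an unadjusted p under 0.05). All the calls were of keratins, Krt7 and Krt18 in Drosha and Krt7, Krt8 and Krt18 in Dicer. In Ago 2 of the 4 trophectoderm markers had positive log2 values and 2 negative ones, Krt8 (-0.22) and Krt18 (-0.2). Fibroblast markers, of which 4 of 6 were tested, summed to 248 and 220 CPM in WT, 173 and 61.4 for Dgcr8, 106 and 73 for Drosha, 85.4 and 41.4 for Dicer, and 158 and 85.8 for Ago. All 8 knockout libraries lay below both WT libraries in this sum, but the markers did not all fall. In Ago 2 rose and 2 fell. Those that rose were Col6a2, at 8.77 and 17.5 CPM (7.56 and 6.76 in WT), and Fbln2, at 29.3 and 19.9 CPM (14.1 and 10.25 in WT). In Dgcr8 1 rose, Fbln2, and 3 fell. The Fbln2 rise in Ago (log2 1.01, edgeR unadjusted p = 0.035) is among the unadjusted counts below. In Dicer 3 markers were called lower, where 3.76% of all genes were, and in Dgcr8, Drosha and Ago 0 were called by edgeR, with 2, 1 and 2 at an unadjusted p under 0.05 and 0, 1 and 1 called by DESeq2. Whether such cells were in the cultures, and their part in the member values of those groups, was not tested.

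Per length of coding sequence the order of the genes changed for the Lefty pair. On the scale of mean CPM per kilobase of coding sequence, the WT order was Tdgf1 at 1070, Gdf3 at 125, Nodal at 72.8, Smad2 at 48.1, Skil at 44.3, Acvr2b at 33.5, Smad7 at 19.9, Lefty2 at 16.0, Lefty1 at 8.15 and Tgfbr2 at 5.59. In WT the ranges of Gdf3 (156 and 94.5) and Nodal (97.6 and 48.1) overlapped, as did those of Lefty2 (21.1 and 10.9) and Lefty1 (12.3 and 3.97). Nodal also overlapped Smad2 (47.0 and 49.3), Lefty2 overlapped Smad7 (21.4 and 18.4), and Lefty1 overlapped Tgfbr2 (5.63 and 5.55). Tdgf1 stood clear of all others. Lefty1, which by its mean was next to last in WT, was the third in Drosha (184), Dicer (308) and Ago (443), and lay between Skil and Acvr2b in Dgcr8 (35.9). Its libraries spread from 144 to 741 in Ago, which spans the levels of Gdf3 (477 and 438) and Nodal (360 and 211) there. In Drosha (297 and 70.2) and Dicer (507 and 109) its libraries also overlapped those of Gdf3 and Nodal. Tdgf1 was the first and Gdf3 the second in all 5 groups, at 618 and 544 for Dicer, where their libraries overlapped, and at 1070 and 125 in WT, where they did not.

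The genes whose pattern was most like that of a member were taken as the 3 with the highest Pearson r of log2 CPM over the 10 libraries, among 6784 genes with a mean of at least 20 CPM. For Lefty1 these were Alpl (r = 0.983), Kirrel (0.977) and Tor1b (0.968). For Lefty2 they were Fcgrt (0.933), Ubxn8 (0.930) and Tmem109 (0.919), and for Nodal they were Xylt2 (0.938), Cpxm1 (0.925) and Npdc1 (0.910). For Tdgf1 they were Rps6kc1 (0.907), Ergic3 (0.907) and Nsdhl (0.906). The 10 points share groups, depths and the 2 WT libraries, and the highest of 6784 values is high by selection, so r is a description here.

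The rest of the pathway showed few calls. Of 51 other genes listed by role 34 were in the table, and all 34 were tested. The number called by edgeR was 0 in Dgcr8, 1 lower in Drosha, 1 higher and 1 lower in Dicer, and 0 in Ago, with 0.0729%, 3.44%, 11.1% and 2.88% of all genes called in these groups. In Dgcr8 4 had an unadjusted p under 0.05 and 0 were called by DESeq2, and in Ago these numbers were 4 and 1. Their median log2 fold change was -0.04, 0.10, 0.13 and 0.08 for Dgcr8, Drosha, Dicer and Ago. Among the 2 of 7 other ligands tested, Tgfb1, the founding ligand of the family, had 25.8 and 25.2 CPM in WT, 7.91 and 5.68 for Drosha, and 6.72 and 4.97 for Dicer. All 4 of these knockout libraries lay below WT. Tgfb1 fell in Drosha (log2 -1.92, SE 0.47, edgeR adjusted p = 0.049, on 15 and 13 counts) and in Dicer (log2 -2.09, SE 0.46, adjusted p = 0.016, on 34 and 9 counts).

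The Tgfb1 calls were lost when single libraries were left out. In Dicer the log2 value and adjusted p were -2.35 and 0.11 without Dicer replicate 1, -1.95 and 0.093 without Dicer replicate 2, -2.09 and 0.08 without WT replicate 1, and -2.11 and 0.10 without WT replicate 2. In Drosha they were -2.17 and 0.11 without Drosha replicate 1, -1.68 and 0.22 without Drosha replicate 2, -1.90 and 0.20 without WT replicate 1, and -1.93 and 0.27 without WT replicate 2. Leaving out a Dicer library gave Drosha values of -1.92 (adjusted p = 0.073, replicate 1) and -1.93 (0.067, replicate 2), and leaving out a Dgcr8 library -1.92 (0.052, replicate 1) and -1.92 (0.051, replicate 2). In Ago Tgfb1 had 14.2 and 32.8 CPM, on either side of WT.

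Among the 8 turnover genes, Ppm1a, a phosphatase known to act on Smad2 and Smad3, had 60.3 and 54.0 CPM in WT and 173 and 139 CPM for Dicer. Both Dicer libraries lay above both WT libraries, and Ppm1a rose 2.73-fold (log2 1.45, SE 0.32, edgeR adjusted p = 0.016). The call was lost without Dicer replicate 1 (log2 1.28, adjusted p = 0.13), WT replicate 1 (1.52, 0.10) and WT replicate 2 (1.37, 0.17). Of the 5 of 7 other receptors tested 0 were called by edgeR (2 of 20 tests at an unadjusted p under 0.05, 1 by DESeq2). Tgfbr1, the type I receptor for TGF-beta ligands, had 44.2 and 32.6 CPM in WT and 95.5 and 82.2 CPM for Dicer (log2 1.22, SE 0.38, edgeR adjusted p = 0.063), and passed in DESeq2 (0.019), on the Dicer and WT libraries alone (0.003), and without Drosha replicate 1 (0.027) or Drosha replicate 2 (0.026). Tgfbr3, a TGF-beta co-receptor, differed by -1.50 in Ago (adjusted p = 0.23).

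Of the 9 of 12 extracellular inhibitors and processing genes tested 0 were called by edgeR or DESeq2 (3 of 36 tests at an unadjusted p under 0.05). Ltbp4, a matrix protein that binds latent TGF-beta, differed by 0.85 in Ago on the log2 scale (adjusted p = 0.17), and Furin, a protease that cleaves the Nodal precursor, by -0.69 in Dgcr8 (adjusted p = 0.48). Of the 8 of 9 other Smads and nuclear partners tested 0 were called by edgeR (4 of 32 tests at an unadjusted p under 0.05, 1 by DESeq2). Ski, a repressor of Smad targets related to Skil, had 27.9 and 32.8 CPM in WT and 55.5 and 63.3 for Ago. Both Ago libraries lay above both WT libraries (log2 0.97, SE 0.27, edgeR adjusted p = 0.081), and DESeq2 called the difference at 0.024. Tgif1, another Smad corepressor, differed by -0.91 in Dgcr8 (adjusted p = 0.35). Of the other target genes 2 of 8 were tested and 0 called by edgeR or DESeq2 (0 of 8 tests at an unadjusted p under 0.05). Bambi, a decoy receptor, differed by -0.67 in Ago (adjusted p = 0.51) and Pmepa1, an inhibitor of Smad activation, by -0.43 (adjusted p = 0.76).

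**Figure D5:**
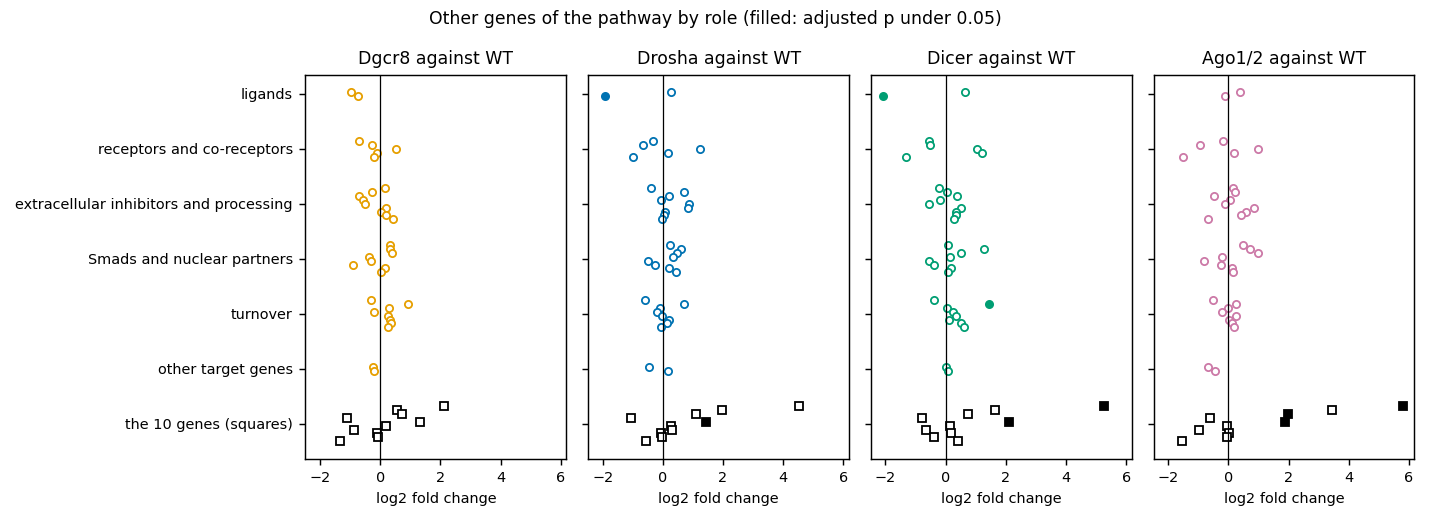
Log2 fold change against WT of the 34 other pathway genes tested, arranged by role, in the 4 knockout groups, with the 10 genes themselves as squares in the bottom line and filled marks for an adjusted p under 0.05. Among the 34, Tgfb1 in Drosha and Dicer and Ppm1a in Dicer are filled.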

How the data were processed

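Ribosome footprints of 10 libraries, 2 for each of 5 groups of E14 cells, were analysed. Per the labels' protocols, cells were treated with cycloheximide, spin columns gave monosomes of lysates digested with RNase I, and the libraries were depleted of ribosomal RNA and carried Drosophila spike-ins. The tools Trimmomatic and Bowtie2 and the builds mm10 (GRCm38) and dm6 (BDGP6) are named, without versions, per the submitters' processing notes. The deposited table, made by the authors, holds raw read counts, whole numbers for each gene and library. How reads were counted (tool, gene models, strand, reads with several matches) is not given in the sources used here.

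Columns were matched to samples by the library names in the labels. In R 4.3.3 with edgeR 4.0.16, filterByExpr with the 5 groups removed 33 of 11011 genes, TMM scaled the library sizes, and 1 quasi-likelihood fit of all 10 libraries gave each group its mean (5 residual degrees of freedom, median prior 6.69). Tests were 2-sided, with Benjamini-Hochberg adjustment over the 10978 genes of each comparison and a threshold of 0.05. The SE comes from the F statistic, as the size of the log2 fold change divided by the root of F. CPM values use the scaled library sizes. Floors of 3 counts cover counting error only. On simulated counts with 200 genes changed 4-fold in the Dicer comparison, of 10978 genes, the test called 143 of the 200 and 1 unchanged gene. Every simulated gene had the same coefficient of variation between libraries, 0.306. The estimates for Lefty1 (0.666) and Lefty2 (0.573) were larger, so these numbers do not carry over to them. Alternatives were DESeq2 1.42.0, total-count scaling, no filter, fits of the 2 groups compared alone, a replicate block and leaving out each library. Added after seeing the files were a block by the numbers of the column names, leaving out both Dgcr8 libraries, and adding the Lefty counts.

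The members and the lists were chosen with earlier results of these data known. Named are all 10 members. Of the other pathway genes, those called against WT are named and, where a list has none, the 2 with the smallest p, and the 3 genes most like Lefty1, Lefty2, Nodal and Tdgf1 are given. Sequences came from RefSeq (GRCm38.p6) and GENCODE M21.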

Additional observations from a re-analysis of the deposited data

How the results depend on the processing

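The number of genes called against WT by edgeR depended on the tool and the model. With DESeq2 1.42.0, whose test of any difference is a likelihood ratio, the counts were 160 in Dgcr8 (8 by edgeR), 972 in Drosha (378), 1874 in Dicer (1220), 932 in Ago (316) and 1906 for any difference (710). Fits of the 2 groups alone gave 0 in Dgcr8, 3224 in Dicer and 536 in Ago, and with both Dgcr8 libraries left out, a choice made after seeing the data, Ago gave 491. With 1 library left out at a time, the counts ran from 0 to 107 in Dgcr8, 1 to 514 in Drosha, 139 to 1503 in Dicer, 3 to 494 in Ago, 173 to 931 for any difference and 0 to 2 for the member tests between knockouts. Where that left 1 library in a group, it was assumed to vary like the other groups. Depth limits Tgfbr2 most, with 6 counts in 1 Dgcr8 library. The causes of these shifts were not tested.

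Replicate numbers in the titles are shared between groups, and the labels name no batch, but the library numbers in the column names run in series. The lower-numbered libraries of WT, Dgcr8, Drosha and Dicer have consecutive library numbers. Replicate 2 of these groups falls in a later run, which also holds the lower-numbered Ago library. Ago replicate 2 has a still later number, with no WT library beside it. The replicate numbers of the column names follow these series, and those of the titles do not for Ago. Deviations of libraries with the same number in the titles correlated across genes with r between 0.06 (Dgcr8 and Drosha) and 0.29 (Dicer and Ago), all of them positive. For Ago these r values pair libraries of different series, so they do not check the series. The main fit did not pair libraries by these numbers, and whether the series were batches was not tested. A replicate block by the titles' numbers gave 14 calls in Dgcr8, 770 in Drosha, 1877 in Dicer, 738 in Ago and 1349 for any difference. A block by the numbers of the column names, which are 2 and 3 for Ago, chosen after seeing the files, gave 33, 951, 2168, 699 and 1594, and 2 member tests between knockouts, Lefty1 (-4.55, adjusted p = 0.049) and Nodal (-1.80, adjusted p = 0.038) in Dgcr8 minus Ago. Under both blocks Lefty1 in Drosha passed (adjusted p = 0.025 by titles and 0.027 by column names), as did Tdgf1 in Drosha (0.032 and 0.018), and Tdgf1 in Dicer passed under the block by column names (0.026). Lefty2 in Ago passed under the block by titles (3.46, adjusted p = 0.047), as did Ski in Ago (0.035), and Tgfbr1 in Dicer passed under both (0.016 by titles, 0.017 by column names). In the test of any difference Nodal (0.016 and 0.017) and Tdgf1 (0.047 and 0.023) passed under both blocks.

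Some values, none of them called in all 10 libraries, changed sign under some settings, and none passed the threshold with its sign changed. Under the block by column names Acvr2b in Ago became 0.77, Bambi in Ago 0.16 and Pmepa1 in Ago 0.64, and under the block by titles Acvr2b in Dgcr8 became 0.01. With total-count scaling Acvr2b in Drosha became 0.03, and on 2 groups alone Skil in Ago became -0.01. With single libraries left out, log2 values against WT ran from -0.98 to 0.53 (Ago), -0.34 to 0.18 (Dgcr8), -1.01 to 0.01 (Dicer) and -0.53 to 0.37 (Drosha) for Acvr2b, and from -0.07 to 0.12 (Ago), -0.36 to 0.09 (Dgcr8) and -0.19 to 0.04 (Drosha) for Skil. They ran from -0.24 to 0.10 (Ago), -0.03 to 0.37 (Dgcr8) and -0.17 to 0.44 (Dicer) for Smad2, from -2.04 to 1.51 for Lefty2 in Dgcr8, from -0.68 to 0.86 for Smad7 in Drosha, from -0.52 to 0.88 for Tgfbr2 in Dicer and from -1.79 to 0.27 for Pmepa1 in Ago. Between knockouts Gdf3 in Dgcr8 minus Drosha ran from -0.29 to 0.16. Lefty1 ran from -2.01 to 1.10 in Dicer minus Ago, -2.66 to 0.35 in Drosha minus Ago and -2.14 to 0.74 in Drosha minus Dicer. The signs of Gdf3, Tdgf1, Nodal and Lefty1 against WT stayed in every setting run.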
